A study of Rattus norvegicus with 6 samples.

Results

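A set of 10 genes of the fibroblast growth factor (FGF) and hepatocyte growth factor (HGF) systems was followed in rat lung. They were the ligands Fgf1, Fgf2, Fgf7, Fgf10, Fgf18 and Hgf, and the receptors Fgfr1, Fgfr2, Fgfr3 and Met. They were taken from the deposited table by symbol, and each symbol had 1 row, so 10 of the 23802 rows are described. PolyA RNA of whole lung was sequenced from 3 samples of monocrotaline (MCT) rats and 3 samples of control rats, all wild-type male Sprague-Dawley rats of 200 to 250 g. MCT, a plant alkaloid that injures the lung vessels, was given once at 60 mg/kg, and lungs were taken 4 weeks later. Control rats received the same volume of saline under the skin. The labels give the MCT route both as intraperitoneal and as subcutaneous, so the route may have differed between the groups. They do not say whether each sample was a separate or a pooled animal, so the p-values cover the variation among these libraries, and part of it may be technical. No age is given in the labels.

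FGFs and HGF are secreted factors that act on receptor tyrosine kinases at the cell surface. FGF ligands bind FGF receptors together with heparan sulfate, whereas HGF is secreted as an inactive precursor that is cleaved by serine proteases before it activates MET. In lung, Fgf7, Fgf10 and Hgf are known as products of mesenchymal cells that act on the epithelium, and Fgfr2, in its epithelial splice form, is the receptor for Fgf7 and Fgf10. Gene-level values cannot separate the splice forms of the receptors. In whole tissue, fewer cells of a type and less RNA per cell cannot be told apart.

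Summed counts ranged from 13525912 to 17916134 per sample. No pair of replicates looked like 1 library deposited repeatedly, as a chi-square of their counts divided by its degrees of freedom was 22.1 to 49.7 within groups. Over the whole table, 8.01% of the 15250 tested genes were called higher in MCT lung and 5.11% lower (quasi-likelihood test in edgeR, adjusted p under 0.05 after Benjamini-Hochberg correction). Without regard to the test, 35.4% of these genes showed no overlap between the groups, with all MCT samples below all controls in 17.0% and above them in 18.4%. Lung identity was clear from the surfactant gene Sftpc, at 8917 CPM in MCT lung and 13395 CPM in control lung on average, where CPM is the count scaled to library size by TMM. MCT replicate 1 stood apart in neutrophil genes, whose 4 markers summed to 582 CPM there, against 61.5 and 43.0 CPM in MCT replicates 2 and 3 and 29.7 to 55.7 CPM in controls.

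The windows upstream of 4 of the 10 genes are shown because 3 of them, Fgfr2, Fgfr3 and Hgf, were lower in MCT lung, while Fgf10 was the only gene of the 10 whose MCT samples all lay above the controls. They are the 250 bases before the annotated start in RefSeq on GRCr8, a later build than the Rnor_6.0 named in the submitters' processing notes. The window of Fgfr2 is chr1:194280915-194281164 (minus strand), that of Fgfr3 chr14:81227210-81227459 (minus strand), that of Hgf chr4:19700468-19700717 (minus strand) and that of Fgf10 chr2:52533689-52533938 (plus strand). Capitals mark matches on either strand to the GC box GGGCGG or the CCAAT box CCAAT.
Fgfr2: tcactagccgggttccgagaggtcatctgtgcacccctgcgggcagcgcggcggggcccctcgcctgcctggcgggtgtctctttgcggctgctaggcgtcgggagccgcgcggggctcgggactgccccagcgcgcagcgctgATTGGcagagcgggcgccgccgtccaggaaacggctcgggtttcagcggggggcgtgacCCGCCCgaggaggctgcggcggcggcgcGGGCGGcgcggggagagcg
Fgfr3: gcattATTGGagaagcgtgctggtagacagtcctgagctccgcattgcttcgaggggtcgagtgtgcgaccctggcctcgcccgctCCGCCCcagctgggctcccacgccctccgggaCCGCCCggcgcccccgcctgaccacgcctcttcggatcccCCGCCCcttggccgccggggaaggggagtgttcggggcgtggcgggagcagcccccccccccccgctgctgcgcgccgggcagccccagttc
Hgf: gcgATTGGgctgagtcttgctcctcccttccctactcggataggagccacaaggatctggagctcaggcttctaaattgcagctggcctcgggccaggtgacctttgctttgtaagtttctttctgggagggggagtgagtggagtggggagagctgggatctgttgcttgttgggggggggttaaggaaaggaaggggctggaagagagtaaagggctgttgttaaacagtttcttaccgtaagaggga
Fgf10: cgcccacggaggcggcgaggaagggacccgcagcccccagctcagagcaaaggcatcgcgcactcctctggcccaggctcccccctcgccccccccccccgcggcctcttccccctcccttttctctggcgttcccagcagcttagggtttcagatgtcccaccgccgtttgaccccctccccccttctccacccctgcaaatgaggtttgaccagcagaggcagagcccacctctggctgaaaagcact

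The windows of Fgfr2 and Fgfr3 were rich in CpG, with 37 and 26 CpG dinucleotides and a GC content of 76.8% and 74.4%. Fgf10 had 13 CpG and 67.2% GC, and Hgf had 4 CpG and 54.0% GC, against medians of 5 CpG and 51.2% GC over 33469 RefSeq windows of the same length. GC boxes numbered 2 in Fgfr2, 3 in Fgfr3 and 0 in both Hgf and Fgf10, and 30.5% of all windows held at least 1. A CCAAT box was found once each in Fgfr2, Fgfr3 and Hgf and not in Fgf10, and 34.0% of all windows held one. The TATA box TATAAA (12.9% of all windows), the AP-1 site TGANTCA (6.34%) and the E-box CACGTG (5.59%) had 0 matches in these 4 windows. No matches overlapped one another. Among the lowered genes, the windows of the FGF receptors held GC boxes and many CpG, and that of Hgf had 0 GC boxes and few CpG. RefSeq held a window for 9 of the 10 genes, and 5 of these began within 50 bases of the annotated gene start. The window listed for Met began inside the annotated gene and is not shown.

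Of the 10 genes, 9 passed the filter on low counts, and 4 of the 9 were called lower in MCT lung, where 5.11% of all tested genes were: Fgfr2, Met, Fgfr3 and Hgf. None was called higher by edgeR, DESeq2 or limma-voom, and 1, Fgf10, had an unadjusted edgeR p under 0.05 in that direction. The median log2 fold change of the 9 was -0.32, against -0.01 over all tested genes. The groups did not overlap for 6 of the 9 genes, against 35.4% of all tested genes. All 4 receptors lay below the controls in every MCT sample, while of the 5 tested ligands 1 lay below, 1 above and 3 overlapped. Levels are given as the authors' FPKM, which is scaled to gene length, and folds and adjusted p-values come from edgeR on the counts.

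**Figure D1:**
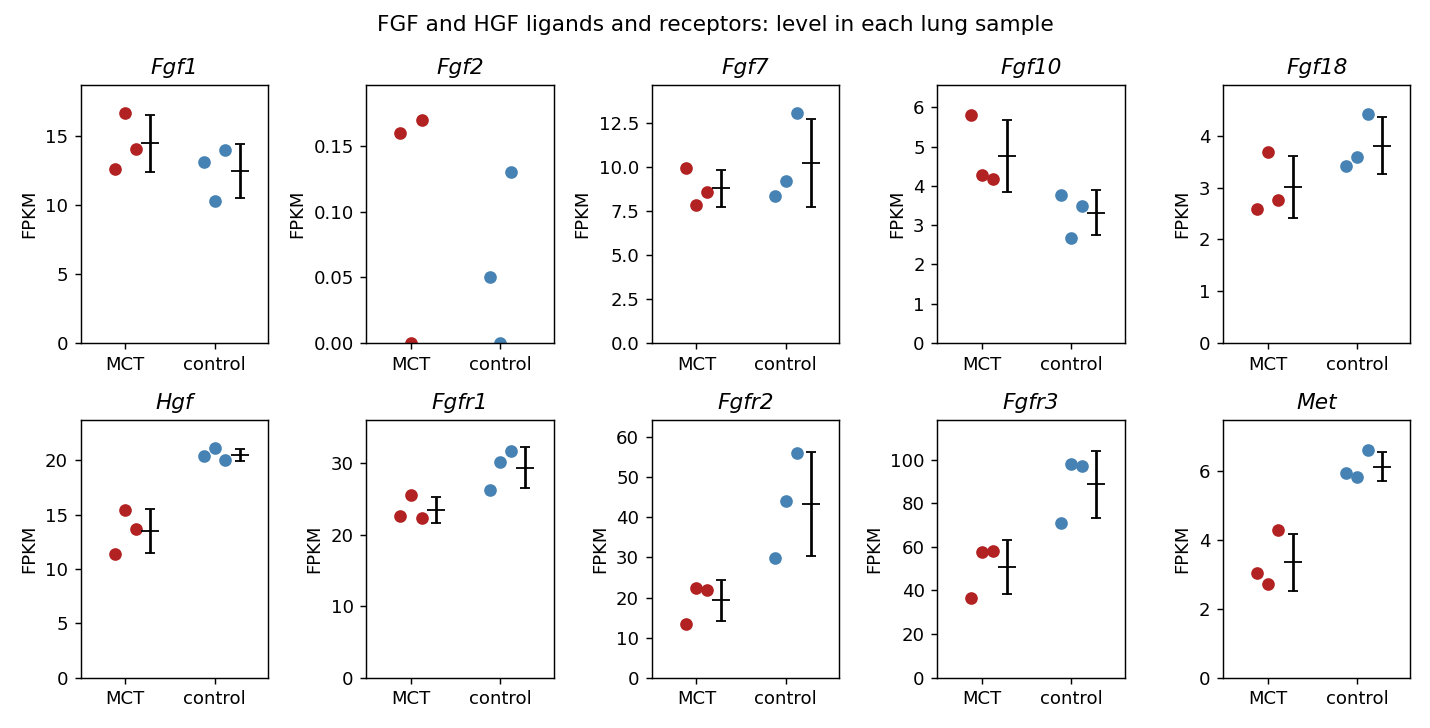
FPKM (y axis, from 0) of each ligand and receptor in the 3 MCT samples (red) and the 3 control samples (blue); black marks give the mean ± SD, left out for Fgf2. The groups do not overlap for Fgf10, where MCT is higher, or for Hgf, Fgfr1, Fgfr2, Fgfr3 and Met, where MCT is lower.

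Among the ligands, Hgf fell. HGF, made by fibroblasts, endothelium and smooth muscle, drives growth and motility of epithelial and endothelial cells. Its level was 11.4, 15.4 and 13.7 FPKM in MCT replicates 1 to 3, against 20.4, 21.1 and 20.0 FPKM in control replicates 1 to 3. The controls were close together while the MCT samples spread more widely, and the highest MCT sample stayed below the lowest control. The fall was 1.51-fold (log2 fold change -0.59, SE 0.14, edgeR adjusted p = 0.0258). This call held without MCT replicate 2 (edgeR adjusted p = 0.0143) and ended without any other single sample (edgeR adjusted p = 0.0627 to 0.0878).

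Fgf10, a mesenchymal ligand for Fgfr2 that directs branching of the embryonic lung and supports alveolar epithelium, had a positive log2 fold change but did not pass the test. It stood at 5.82, 4.29 and 4.19 FPKM in MCT lungs and at 3.78, 2.68 and 3.49 FPKM in control lungs. All MCT samples were above all controls, with MCT replicate 1 the highest. The log2 fold change was 0.53 (SE 0.20, edgeR adjusted p = 0.111), and its range over 15 alternatives was 0.37 to 0.65 with 0 calls (adjusted p = 0.0862 to 0.305). Per 1000 CPM of 6 summed fibroblast markers, whose sum was higher in every MCT sample, Fgf10 was 20.5, 16.8 and 14.6 CPM in MCT lungs and 18.0, 12.8 and 17.1 CPM in control lungs, and the groups overlapped. Most of the rise in that marker sum lay in Col1a1, which averaged 464 CPM in MCT lungs and 215 CPM in control lungs. By log2 fold change, 4 of the 6 markers were positive, while Pdgfra and Dcn were negative (-0.17 and -0.46). Fgf10 was not set against these markers without the collagen genes. Fgf7, also called keratinocyte growth factor, is the other mesenchymal ligand of Fgfr2. It had 9.94, 7.85 and 8.56 FPKM in MCT lungs and 8.37, 9.17 and 13.1 FPKM in control lungs, and these groups overlapped (log2 fold change -0.21, SE 0.23, edgeR adjusted p = 0.601). The gene length that count and FPKM imply was 693 bases for Fgf7 and 4243 bases for Fgf10, so the FPKM of Fgf7 rests on only 85 to 162 counts per sample. The ratio of Fgf7 to Fgf10 in FPKM within a sample was 1.71, 1.83 and 2.04 in MCT lungs and 2.21, 3.42 and 3.74 in control lungs. This ratio was lower in all MCT samples and was chosen after its values were seen.

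Of the remaining ligands, Fgf1 and Fgf18 overlapped between the groups, and Fgf2 was not tested. Fgf1, an FGF that binds all FGF receptors and lacks a secretion signal, had 12.7, 16.7 and 14.1 FPKM in MCT lungs and 13.2, 10.3 and 14.0 FPKM in control lungs. Its log2 fold change was 0.15 (SE 0.17, edgeR adjusted p = 0.610) and became -0.02 without MCT replicate 2. Fgf18, which takes part in lung and cartilage growth, had 2.58, 3.69 and 2.77 FPKM in MCT lungs and 3.41, 3.60 and 4.43 FPKM in control lungs, from 21 to 44 counts per sample. These groups overlapped as well (log2 fold change -0.32, SE 0.32, edgeR adjusted p = 0.540). Fgf2, a mitogen of endothelial and smooth muscle cells, did not pass the filter. It was assigned 3.03, 0 and 3.04 counts in MCT lungs and 1.04, 0 and 3 counts in control lungs, too few to compare the groups.

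The receptor Fgfr2 fell the most of the 10 genes. It carries the Fgf7 and Fgf10 signal into alveolar and airway epithelium. Its level was 13.5, 22.4 and 21.9 FPKM in MCT lungs and 30.0, 44.0 and 56.1 FPKM in control lungs. The groups did not overlap, and the controls spread more widely than the MCT samples. The fall was 2.22-fold (log2 fold change -1.15, SE 0.25, edgeR adjusted p = 0.0220). The call ended without MCT replicate 3 (edgeR adjusted p = 0.0518), control replicate 2 (edgeR adjusted p = 0.0741) or control replicate 3 (edgeR adjusted p = 0.0826).

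Fgfr3, a receptor for Fgf1, Fgf9 and Fgf18 among others, was the most abundant of the 10 genes per length in both groups. It had 36.3, 57.6 and 58.2 FPKM in MCT lungs and 70.8, 98.0 and 97.3 FPKM in control lungs. Replicate 1 was the lowest sample in each group. The fall was 1.73-fold (log2 fold change -0.79, SE 0.21, edgeR adjusted p = 0.0401). It was called without MCT replicate 2 or control replicate 1, and not without any other sample (edgeR adjusted p = 0.0707 to 0.132).

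Fgfr1, the receptor most used by mesenchymal and vascular cells, differed less. Its level was 22.5, 25.5 and 22.3 FPKM in MCT lungs and 26.2, 30.2 and 31.7 FPKM in control lungs. The groups did not overlap, but the difference did not pass the test (log2 fold change -0.31, SE 0.12, edgeR adjusted p = 0.117). Set against Fgfr1 within each sample, Fgfr2 stood at 0.599, 0.880 and 0.983 in MCT lungs and at 1.15, 1.46 and 1.77 in control lungs. Fgfr3 stood at 1.61, 2.26 and 2.61 times Fgfr1 in MCT lungs and at 2.71, 3.25 and 3.06 times in control lungs. Both ratios were lower in every MCT sample. Fgfr3 over Fgfr2 was 2.70, 2.56 and 2.66 in MCT lungs and 2.36, 2.23 and 1.73 in control lungs, higher in every MCT sample. These ratios were also chosen after the values were seen and are given without a test.

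Met, the HGF receptor, was also called lower in MCT lung. It had 3.02, 2.71 and 4.28 FPKM in MCT lungs and 5.94, 5.81 and 6.59 FPKM in control lungs. The controls were close together, and MCT replicate 3 lay nearest to them. The fall was 1.82-fold (log2 fold change -0.86, SE 0.18, edgeR adjusted p = 0.0195). The call ended without MCT replicate 1 (edgeR adjusted p = 0.0614), control replicate 2 (edgeR adjusted p = 0.0609) or control replicate 3 (edgeR adjusted p = 0.0777). The ratio of Hgf to Met within a sample was 3.78, 5.69 and 3.21 in MCT lungs and 3.43, 3.63 and 3.04 in control lungs, and these overlapped.

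**Figure D2:**
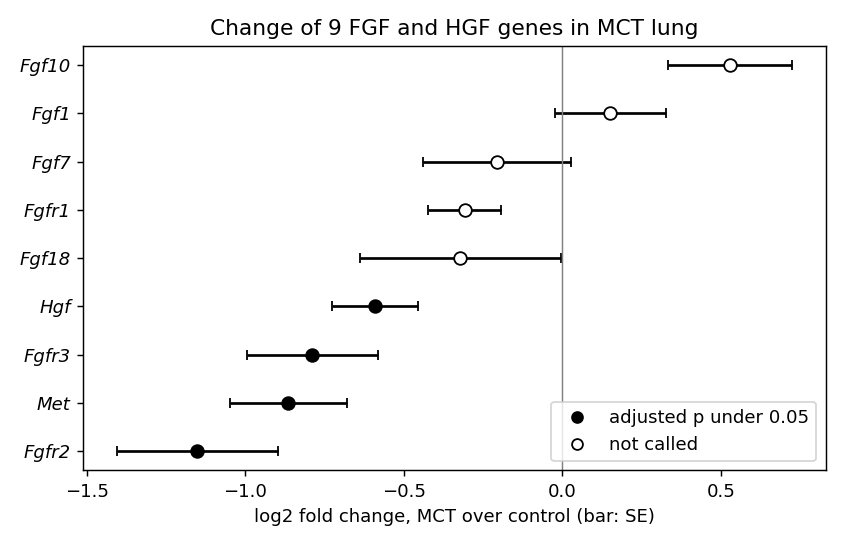
Log2 fold change, MCT over control, of the 9 tested genes (x axis) with its SE as the bar, ordered by size; filled points passed an adjusted p of 0.05. Fgfr2, Met, Fgfr3 and Hgf are filled and lie between -1.15 and -0.59, while Fgf10, at 0.53, is open.

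The order of the levels differed somewhat between the groups. In MCT lungs Fgfr3 averaged 50.7 ± 12.4 FPKM (SD, n = 3), followed by Fgfr1 at 23.4 ± 1.79, Fgfr2 at 19.3 ± 5.03, Fgf1 at 14.5 ± 2.06 and Hgf at 13.5 ± 2.01. Neighbours from Fgfr1 down to Hgf overlapped in their samples, as did Fgf10, Met and Fgf18 further down. In control lungs Fgfr3 averaged 88.7 ± 15.5 FPKM (SD, n = 3), followed by Fgfr2 at 43.3 ± 13.1, Fgfr1 at 29.4 ± 2.87, Hgf at 20.5 ± 0.558 and Fgf1 at 12.5 ± 1.94. There, Fgfr2 overlapped Fgfr1, Fgf1 overlapped Fgf7, and Fgf18 overlapped Fgf10. Hgf was thus above all Fgf1 samples in control lungs and not separated from Fgf1 in MCT lungs.

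The calls of the 4 genes depended on which samples were kept. With all 6 samples 4 were called lower, against 4 without MCT replicate 2, 3 without control replicate 1, 1 without MCT replicate 1 (Fgfr2), 1 without MCT replicate 3 (Met) and 0 without control replicate 2 or 3. The whole table lost calls with the same omissions, for example to 212 genes lower without control replicate 3, against 779 with all samples. The direction of all 4 was the same in each of these fits, which follows from all MCT samples lying below all controls.

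**Figure D3:**
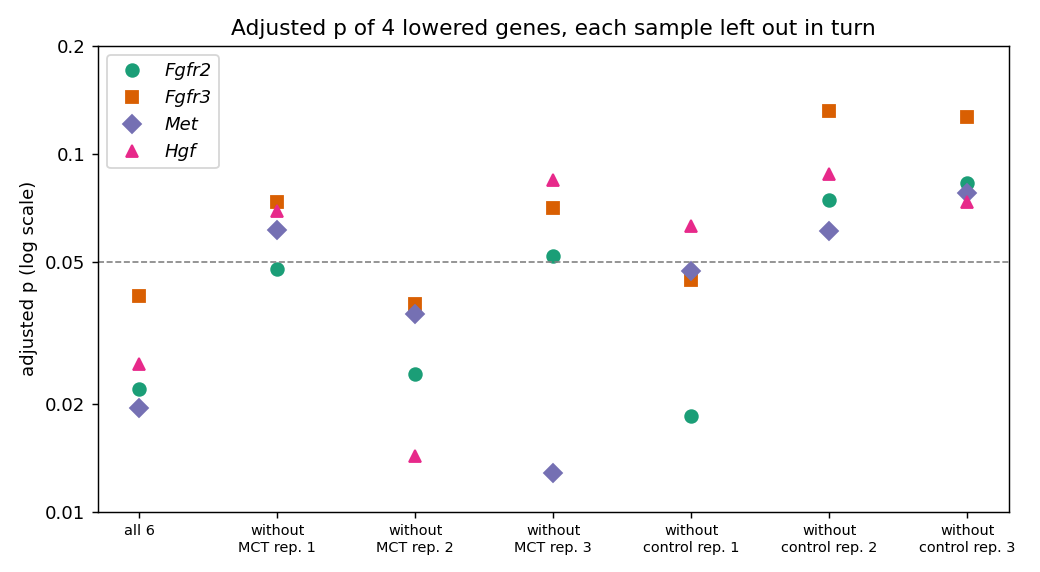
Adjusted p (log axis) of Fgfr2, Fgfr3, Met and Hgf with all 6 samples and with each sample left out, from edgeR; the dashed line marks 0.05. Without control replicate 2 or 3 the 4 points lie above the line, between 0.0609 and 0.132, and without MCT replicate 2 they lie below it.

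Some epithelial, fibroblast and endothelial markers also differed between the groups. The 6 alveolar type 2 markers all had a negative log2 fold change, 2 of them called lower (Abca3 and Slc34a2, edgeR adjusted p = 0.0495 and 0.0294), and their sum was 8910 to 16869 CPM in MCT lungs and 20112 to 21467 CPM in control lungs. Of the 5 type 1 markers 1 was lower, with overlapping sums of 2533 to 4539 CPM in MCT lungs and 3515 to 4479 CPM in control lungs. The general epithelial genes Epcam, Cdh1, Krt8 and Krt18 had 0 of 4 called (1 with an unadjusted p under 0.05), and summed to 613 to 749 CPM in MCT lungs and 622 to 765 CPM in control lungs. Fibroblast markers had 1 of 6 called higher and summed to 1097 to 1227 CPM in MCT lungs and 836 to 909 CPM in control lungs. Endothelial markers had 2 of 6 called lower, with 1245 to 2317 CPM in MCT lungs and 2458 to 2853 CPM in control lungs. Much of that fall lay in Tek, which averaged 103 CPM in MCT lungs and 534 CPM in control lungs. Pecam1 had a positive log2 fold change (0.17), and the sum was not computed without Tek.

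The receptors were also set against sums of epithelial markers, and the outcome differed between the marker lists. Per 1000 CPM of type 2 markers, Fgfr2 was 6.59, 6.66 and 5.71 CPM in MCT lungs and 6.23, 9.45 and 11.8 CPM in control lungs. Fgfr3 was 12.6, 12.2 and 10.8 CPM in MCT lungs and 10.5, 14.9 and 14.4 CPM in control lungs on that scale. Met was 1.67, 0.913 and 1.26 CPM in MCT lungs and 1.39, 1.41 and 1.56 CPM in control lungs. All 3 receptors overlapped between the groups on the type 2 scale. Per 1000 CPM of type 1 markers, Fgfr2 was 23.2, 21.8 and 31.1 CPM in MCT lungs and 33.9, 55.1 and 52.9 CPM in control lungs. Met was 5.86, 2.99 and 6.84 CPM in MCT lungs and 7.59, 8.22 and 7.02 CPM in control lungs on the type 1 scale. Both were lower in every MCT sample there, while Fgfr3 overlapped, at 44.4, 40.1 and 58.5 CPM in MCT lungs and 57.3, 87.2 and 64.8 CPM in control lungs. Set against the 4 general epithelial genes instead, Fgfr2 and Met were lower in every MCT sample and Fgfr3 overlapped. Fgfr2 was then 78.4, 162 and 129 CPM per 1000 in MCT lungs and 175, 312 and 310 in control lungs. Met was 19.8, 22.2 and 28.5 CPM per 1000 in MCT lungs and 39.2, 46.5 and 41.1 in control lungs. Hgf per 1000 CPM of fibroblast markers was 56.8, 85.2 and 67.1 CPM in MCT lungs and 137, 142 and 138 CPM in control lungs, with no overlap. Per 1000 CPM of endothelial markers, Hgf was 54.5, 40.4 and 51.3 CPM in MCT lungs and 43.6, 46.3 and 47.0 CPM in control lungs, and these overlapped. Tek fell the most of the endothelial markers, and the endothelial scale was not computed without it. On the fibroblast scale, Fgf7 was 5.73, 5.03 and 4.85 CPM in MCT lungs and 6.52, 7.16 and 10.4 CPM in control lungs, and Fgfr1 was 49.2, 61.8 and 49.0 CPM in MCT lungs and 76.8, 89.8 and 96.8 CPM in control lungs. Both lay below the controls in every MCT sample. The type 2 sum is mostly Sftpc. The rise of the fibroblast sum lay mostly in Col1a1 (464 CPM in MCT and 215 CPM in control lungs on average). Values on the fibroblast scale therefore also fall where Col1a1 rises, and that scale was not computed without the collagen genes. The marker lists also differ in how their own genes moved, so which cells account for the falls was not tested.

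**Figure D4:**
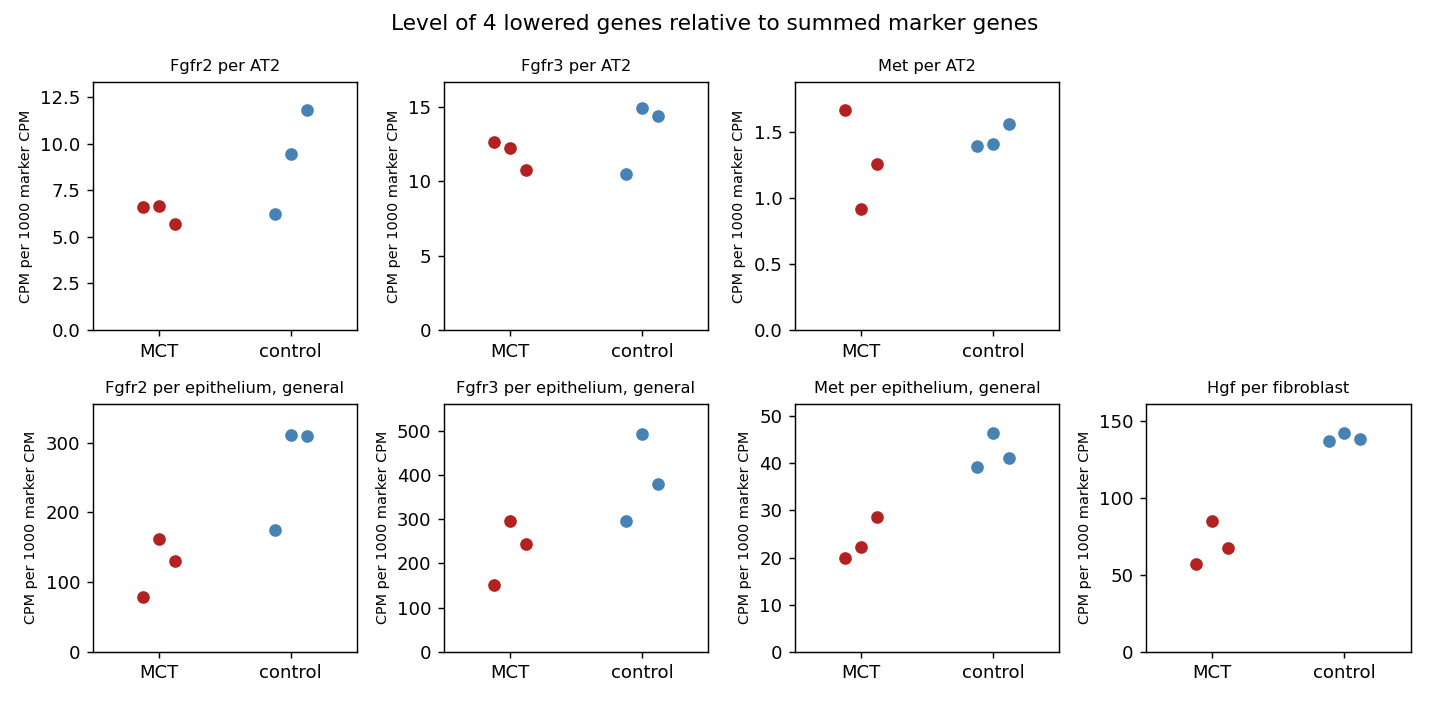
CPM of Fgfr2, Fgfr3, Met and Hgf per 1000 CPM of summed marker genes (y axes, from 0) in the 3 MCT samples (red) and the 3 control samples (blue). The groups overlap for the receptors per type 2 (AT2) markers in the upper row, while Fgfr2 and Met per general epithelial markers and Hgf per fibroblast markers are lower in every MCT sample.

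Markers of other cell types also differed between the groups. Mast cell markers were higher in 5 of 5 and summed to 379 to 1412 CPM in MCT lungs and 16.6 to 28.5 CPM in control lungs. Macrophage markers were higher in 3 of 4 tested, with sums of 650 to 901 CPM in MCT lungs and 367 to 458 CPM in control lungs. Mesothelial markers were lower in 4 of 5, with 17.1 to 25.7 CPM in MCT lungs and 99.7 to 116 CPM in control lungs. Smooth muscle markers were higher in 2 of 4, with 873 to 1238 CPM in MCT lungs and 656 to 786 CPM in control lungs. Airway epithelial markers had 0 of 3 tested called, also 0 at an unadjusted p under 0.05, and their sums overlapped. The 4 cardiac markers summed to 13.9 CPM in control replicate 3, against 2.99 and 3.87 CPM in control replicates 1 and 2. In MCT lungs they summed to 2.58 to 4.55 CPM. Myh6 had 6.90 CPM and Myl7 4.53 CPM in control replicate 3, while Nppa was at 0 counts in all 6 samples. The part of these cells in the results above was not tested.

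Beyond the 10 genes, Fgfr4 and Flrt3 were lower in MCT lung. Of 7 tested receptors, klothos and ligand carriers, 2 were lower by the edgeR test, 0 were higher (1 at an unadjusted p under 0.05) and 5 did not pass, with a median log2 fold change of -0.49. Among all tested genes 5.11% were lower and 8.01% higher by the edgeR test. DESeq2 called 1 of the 7 higher, as did edgeR without MCT replicate 2. Flrt2, a relative of Flrt3, averaged 6.28 ± 3.64 CPM in MCT lungs and 2.28 ± 0.697 CPM in control lungs (SD, n = 3), and the groups overlapped. Its log2 fold change was 1.45 (edgeR adjusted p = 0.0851, and 0.0137 without MCT replicate 2; DESeq2 adjusted p = 0.0204). Fgfr4, a receptor for endocrine and paracrine FGFs, had 9.80, 20.6 and 15.3 FPKM in MCT lungs and 27.9, 39.1 and 34.2 FPKM in control lungs. It fell 2.20-fold (log2 fold change -1.14, SE 0.25, edgeR adjusted p = 0.0233), a call that ended without MCT replicate 3, control replicate 2 or control replicate 3 (edgeR adjusted p = 0.0731 to 0.0870). Per 1000 CPM of type 2 markers it overlapped between the groups. Per 1000 CPM of type 1 markers it was 12.1, 14.5 and 15.5 CPM in MCT lungs and 22.7, 35.4 and 23.2 CPM in control lungs, and per 1000 CPM of general epithelial markers 40.9, 107 and 64.7 CPM in MCT lungs and 117, 199.9 and 136 CPM in control lungs. On both of these scales every MCT sample lay below the controls. Flrt3, a membrane protein that binds FGF receptors, fell 1.79-fold to 11.9 ± 2.04 FPKM in MCT lungs, against 21.5 ± 6.77 FPKM in control lungs (SD, n = 3, edgeR adjusted p = 0.0349). That call ended without MCT replicate 1 or 3 or control replicate 2 or 3 (edgeR adjusted p = 0.0683 to 0.114), on both FPKM scales (limma adjusted p = 0.0597 and 0.0557) and with replicate number as a block (edgeR adjusted p = 0.0537). Without control replicate 3, Flrt3 stood at -0.58 (log2).

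The other FGF ligands were scarce. Of 17 in the table, 6 had 0 counts in all 6 samples, 8 more did not pass the filter, with at most 1.19 CPM in any sample, and 3 were tested with 0 called (also 0 at an unadjusted p under 0.05). Fgf11, an intracellular FGF, was the most abundant of the 3 in CPM, at 1.23 ± 0.0361 FPKM in MCT lungs and 1.71 ± 0.951 FPKM in control lungs (SD, n = 3). Its log2 fold change was -0.47 and became 0.09 without control replicate 1, the highest control at 2.76 FPKM.

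Genes induced by FGF signalling, many of which damp it, split in direction. Of 15 tested, 3 were lower, 2 were higher and 10 did not pass by the edgeR test, with a median log2 fold change of -0.32. The shares over all tested genes were 5.11% lower and 8.01% higher, with a median of -0.01. Etv5, an ETS transcription factor downstream of FGF receptors, had 9.17, 16.0 and 16.9 FPKM in MCT lungs and 31.0, 39.7 and 38.9 FPKM in control lungs. It fell by 1.37 on the log2 scale (SE 0.23, edgeR adjusted p = 0.00788) and was called with every single sample left out (edgeR adjusted p up to 0.0381). Il17rd, known as Sef, a membrane inhibitor of FGF signalling, had 0.370, 0.340 and 0.370 FPKM in MCT lungs and 0.800, 1.81 and 1.28 FPKM in control lungs, from 13 to 63 counts per sample. Its log2 fold change was -1.83 (SE 0.38, edgeR adjusted p = 0.0186), and the call ended without MCT replicate 1 or 3 or control replicate 2 or 3 (edgeR adjusted p = 0.0548 to 0.0746). On the log2(FPKM + 1) scale the change of Il17rd was -0.73.

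Spry1, a Sprouty inhibitor of the RAS-MAPK relay, fell by 0.52 on the log2 scale (edgeR adjusted p = 0.0390), a call that held without control replicate 1 and ended without any other single sample (edgeR adjusted p = 0.0546 to 0.144) and on both FPKM scales (limma adjusted p = 0.0589 and 0.0581). In the opposite direction, the immediate early gene Egr1 had 8.95, 4.06 and 9.87 FPKM in MCT lungs and 2.06, 2.53 and 3.50 FPKM in control lungs. It rose 2.84-fold (edgeR adjusted p = 0.0220), and this held without MCT replicate 2 and ended without any other sample (edgeR adjusted p = 0.0506 to 0.0818) and with limma-voom (adjusted p = 0.05003). Fos, another immediate early gene, rose 2.56-fold (edgeR adjusted p = 0.0268), a call lost without MCT replicate 1 or 3 or control replicate 1 or 2 (edgeR adjusted p = 0.0650 to 0.0845). Spry1, Fos, Flrt2 and Spint1 lie outside the rule for named genes and were picked with their values in view. Dusp6, the most abundant of the list, is a phosphatase of ERK. It had 54.1, 42.7 and 48.5 FPKM in MCT lungs and 44.3, 36.1 and 33.6 FPKM in control lungs, and the groups overlapped (log2 fold change 0.35, edgeR adjusted p = 0.158).

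Of the genes for heparan sulfate, edgeR called 3 of 14 tested enzymes that shape the sugar and 0 of 9 tested proteoglycans. Of all tested genes it called 13.1% in either direction, and a difference between enzymes and proteoglycans was not tested. Of 9 tested proteoglycans 0 were called, 1 of them lower with an unadjusted p under 0.05, and the median log2 fold change was -0.03. DESeq2 called 1 lower, as did edgeR without MCT replicate 2. Agrn, the gene of agrin and the most abundant in CPM, had 43.0, 57.6 and 46.9 FPKM in MCT lungs and 58.2, 64.2 and 59.3 FPKM in control lungs (log2 fold change -0.29, edgeR adjusted p = 0.228). Of 14 enzymes 1 was higher by the edgeR test, 2 were lower and 11 did not pass, with a median of 0.12, where 8.01% of all tested genes were higher and 5.11% lower. The number higher was 3 with DESeq2 and 4 by edgeR without MCT replicate 2. Sulf2, an extracellular sulfatase that trims heparan sulfate, had 49.8, 49.7 and 52.0 FPKM in MCT lungs and 30.0, 29.2 and 35.5 FPKM in control lungs. The MCT samples were nearly equal and all above the controls. The rise was 1.61-fold (log2 fold change 0.69, SE 0.11, edgeR adjusted p = 0.00782) and was called with every single sample left out (edgeR adjusted p up to 0.0379). Hpse, heparanase, fell 2.02-fold to 4.16 ± 1.19 FPKM in MCT lungs, against 8.48 ± 1.90 FPKM in control lungs (SD, n = 3, edgeR adjusted p = 0.0424). Its call held without control replicate 1 and ended without any other sample (edgeR adjusted p = 0.0501 to 0.140). Hs3st3b1, a 3-O-sulfotransferase of heparan sulfate, fell 1.54-fold (edgeR adjusted p = 0.0451), a call that ended without any 1 of the 6 samples (edgeR adjusted p = 0.0594 to 0.139), on both FPKM scales (limma adjusted p = 0.0786 and 0.0750) and with the replicate block (edgeR adjusted p = 0.0759).

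Of the intracellular relay, 1 of 21 tested genes was called, where 8.01% of all tested genes were higher and 5.11% lower. MCT samples all lay above the controls for 5 of 21 and all below for 5, against 18.4% and 17.0% of all tested genes. Of 21 tested adaptors and RAS-MAPK genes 1 was higher, 0 were lower by the edgeR test (3 lower at an unadjusted p under 0.05) and 20 did not pass, with a median log2 fold change of -0.07. Shc1, an adaptor that links receptor tyrosine kinases to GRB2, had 79.3, 68.7 and 80.2 FPKM in MCT lungs and 41.6, 52.1 and 48.3 FPKM in control lungs. It rose 1.67-fold (log2 fold change 0.74, SE 0.13, edgeR adjusted p = 0.0104), and the call ended without control replicate 3 alone (edgeR adjusted p = 0.0506). Plcg1, a phospholipase that binds activated receptors and the most abundant of the list in CPM, had a log2 fold change of -0.24 (edgeR adjusted p = 0.465).

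On the HGF side, Plat and Plaur were higher in MCT lung, where 8.01% of all tested genes were higher and 5.11% lower. Of 14 tested genes for HGF activation, its inhibitors and the MET family, 2 were higher, 0 were lower by the edgeR test (3 at an unadjusted p under 0.05) and 12 did not pass, with a median log2 fold change of -0.27. The number lower was 2 with DESeq2, 1 with the replicate block and 1 by edgeR without MCT replicate 2. Plat, tissue plasminogen activator, had 131, 158 and 169 FPKM in MCT lungs and 98.8, 68.0 and 57.8 FPKM in control lungs, and rose 2.04-fold (log2 fold change 1.03, SE 0.22, edgeR adjusted p = 0.0198). Plaur, the receptor of urokinase, had 11.3, 9.46 and 13.0 FPKM in MCT lungs and 6.19, 4.78 and 5.07 FPKM in control lungs, and rose 2.11-fold (log2 fold change 1.08, SE 0.22, edgeR adjusted p = 0.0162). Both calls ended without MCT replicate 3, control replicate 2 or control replicate 3 (edgeR adjusted p = 0.0576 to 0.0797). Spint2, an inhibitor of the proteases that activate HGF and the most abundant of the list, had 287, 354 and 392 FPKM in MCT lungs and 360.5, 378 and 359.6 FPKM in control lungs (log2 fold change -0.08, edgeR adjusted p = 0.766). Its sign turned to 0.04 without MCT replicate 1. Spint1, another inhibitor of these proteases, had 47.7, 42.2 and 44.7 FPKM in MCT lungs and 52.4, 56.2 and 57.5 FPKM in control lungs. Every MCT sample lay below the controls, but the difference did not pass the test (log2 fold change -0.30, edgeR adjusted p = 0.0987, DESeq2 adjusted p = 0.0819).

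**Figure D5:**
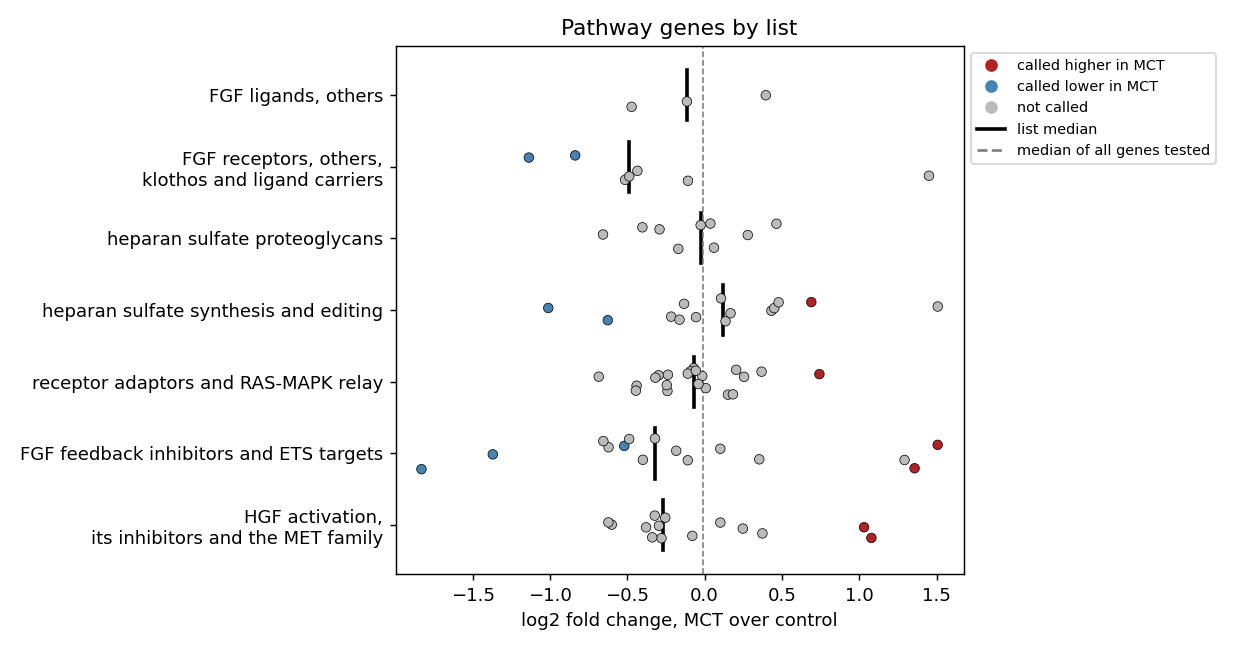
Log2 fold change, MCT over control (x axis), of each tested gene of 7 pathway lists (rows; points are spread vertically for legibility); red points were called higher in MCT lung, blue ones lower and grey ones not called. Black bars are list medians, from -0.49 for receptors and carriers to 0.12 for heparan sulfate enzymes, and the dashed line is the median of all tested genes, -0.01.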

How the data were processed

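The deposited table holds estimated counts and FPKM for 23802 genes in 6 samples. Per the submitters' processing notes, Bowtie2, TopHat2 2.0.3.12 and Rnor_6.0 were used; the counting tool, the annotation and the treatment of multi-mapping reads were not given in the sources used here. The estimated counts were deposited by the authors without scaling, and 90.7% to 91.5% of those above 0 were whole. FPKM was deposited as the authors computed it. Whether libraries kept strand is not given.

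Counts were rounded and tested with edgeR 4.0.16 (R 4.3.3; quasi-likelihood, TMM, no covariates, filterByExpr with a minimum count of 10 and total of 15, leaving 15250 genes). The design had been written for raw counts. Adjusted p-values are Benjamini-Hochberg over all tested genes, called under 0.05. SE is the log2 fold change divided by the root of the F statistic. The fit was also run on simulated data whose planted changes were larger than any tested among the 10 genes. Changes of the size seen in these genes were not simulated. Alternatives were DESeq2 1.42.0, limma 3.58.1 (voom, and log2(FPKM + 1) or log2(FPKM + 0.1) with a mean FPKM of at least 0.1), other scalings and filters, a replicate block and leaving out each sample. Named genes are the 10 genes and, per pathway list, the 3 called genes with the smallest p and the most abundant one in CPM. Genes and lists were chosen with earlier results of these data known. Promoter windows come from RefSeq (GRCr8).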

Additional observations from a re-analysis of the deposited data

How the results depend on the processing

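Scaling, filters, DESeq2, limma-voom, both FPKM scales and the replicate block each left 4 of the 10 genes called lower and 0 higher. With a sample left out, 0 to 4 were called lower. Over the whole table, DESeq2 called 1182 genes lower, and with a sample left out 481 to 1394 were higher and 212 to 978 lower in MCT lung; the causes were not tested, beyond the smaller number of samples. Signs turned for 3 uncalled genes with a sample left out, Fgf1 (log2 fold change -0.021 to 0.280), Fgf11 (-0.765 to 0.087) and Spint2 (-0.177 to 0.044). Replicate numbers are shared between the groups, but same-numbered samples did not deviate together (r = -0.0834, -0.0799 and 0.0354 over 2000 variable genes). No pairing was thus seen, though 3 correlations cannot exclude it. With the replicate block 917 genes were higher and 546 lower. Each symbol of the 10 genes had 1 row, so the alternative of using all its rows gave no value. The low counts of Fgf2 and Fgf18 limit what could be detected.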
